A study of Homo sapiens with 8 samples.

Results

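The SWI/SNF subunits and their paralogs were taken as 31 named genes that encode components of canonical BAF, PBAF or ncBAF, the 3 forms of the mammalian SWI/SNF chromatin remodelling complex. They were found by gene symbol among the 61228 genes listed in each count table, and all 31 were present. Enough reads for a test were found for 29 of them, and ACTL6B and BCL11B fell under the filter on low counts. ACBI1 against DMSO was compared in each of 2 cell lines, then the response was compared between the lines, and last the starting levels of the lines were compared.

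RNA was sequenced from H1975 and HCC44, human cell lines that the labels give as lung cancer with genotype WT and no locus named. Each line was kept for 96 h with the solvent DMSO or with ACBI1, and each of the 4 groups (H1975 DMSO, H1975 ACBI1, HCC44 DMSO and HCC44 ACBI1) held 2 libraries. ACBI1 is a bifunctional degrader: an end of the molecule binds the bromodomains of the SMARCA2, SMARCA4 and PBRM1 proteins, and the other end brings in the ubiquitin ligase VHL. The labels print its concentration as 1 mM, a unit that may be a misprint, because degraders are normally used at much lower concentrations. Protein was not analysed here, so the values below say nothing about how much of the targets was degraded. The labels do not say whether replicates were separate cultures, so p-values measure the spread between these libraries, which may be technical.

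SWI/SNF complexes use the energy of ATP to slide or evict nucleosomes, which opens promoters and enhancers to transcription factors. Each complex carries a single ATPase, SMARCA4 or its paralog SMARCA2, on a core that is largely shared between the forms. Its identity is given by added subunits. In canonical BAF these are ARID1A or ARID1B with a DPF protein. They are PBRM1 with ARID2, BRD7 and PHF10 in PBAF, and BRD9 with BICRA or BICRAL in ncBAF. Most positions can be filled by more than a single paralog, and the genes for SMARCA4 and ARID1A are recurrently mutated in lung cancer.

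Start-site sequences are shown for SMARCA4 and SMARCA2, whose products the degrader binds, for the ARID1A and ARID1B pair, which rose together in HCC44, and for BCL7C, which rose in both lines. They come from RefSeq on GRCh38.p14 and run from 250 bases before to 50 bases after an annotated start, 5′ to 3′ on the strand of the gene. Capitals mark matches on either strand to any of 6 searched motifs. The GC box was searched as GGGCGG and found in 45% of all 35116 RefSeq windows of this length, the CCAAT box by the letters of its name in 34.6%, and the ETS site as CCGGAAG in 10.3%. The AP-1 site was searched as TGANTCA and found in 7.71%, the CRE as TGACGTCA in 1.85%, and the NRF1 palindrome in 0.755%. Overlapping matches run together in the print.
SMARCA4, chr19:10960780-10961079, + strand: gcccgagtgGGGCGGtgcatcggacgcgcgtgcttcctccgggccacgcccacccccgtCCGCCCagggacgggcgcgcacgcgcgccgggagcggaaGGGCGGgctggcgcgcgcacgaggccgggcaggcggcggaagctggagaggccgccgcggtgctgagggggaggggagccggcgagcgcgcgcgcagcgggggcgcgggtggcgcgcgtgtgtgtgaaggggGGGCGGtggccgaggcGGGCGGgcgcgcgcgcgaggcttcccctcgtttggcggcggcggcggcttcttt
SMARCA2, chr9:2015097-2015396, + strand: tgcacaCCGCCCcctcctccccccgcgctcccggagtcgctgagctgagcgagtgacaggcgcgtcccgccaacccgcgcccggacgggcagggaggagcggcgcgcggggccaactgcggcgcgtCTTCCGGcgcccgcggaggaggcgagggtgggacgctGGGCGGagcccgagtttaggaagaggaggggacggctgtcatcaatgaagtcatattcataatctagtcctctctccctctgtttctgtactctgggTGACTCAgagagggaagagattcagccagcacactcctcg
SMARCA2, chr9:2158214-2158513, + strand: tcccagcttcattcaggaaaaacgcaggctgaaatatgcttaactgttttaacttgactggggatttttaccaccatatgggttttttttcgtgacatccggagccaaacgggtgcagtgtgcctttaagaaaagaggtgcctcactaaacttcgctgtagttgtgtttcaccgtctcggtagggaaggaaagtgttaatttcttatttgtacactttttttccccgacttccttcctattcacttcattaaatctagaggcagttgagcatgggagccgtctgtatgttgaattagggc
ARID1A, chr1:26695765-26696064, + strand: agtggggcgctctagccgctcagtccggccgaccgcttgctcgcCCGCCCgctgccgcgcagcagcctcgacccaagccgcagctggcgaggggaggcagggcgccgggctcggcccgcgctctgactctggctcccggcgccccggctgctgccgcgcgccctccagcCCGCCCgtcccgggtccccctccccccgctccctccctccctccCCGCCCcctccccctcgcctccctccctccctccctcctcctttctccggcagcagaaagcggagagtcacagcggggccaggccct
ARID1B, chr6:156777128-156777427, + strand: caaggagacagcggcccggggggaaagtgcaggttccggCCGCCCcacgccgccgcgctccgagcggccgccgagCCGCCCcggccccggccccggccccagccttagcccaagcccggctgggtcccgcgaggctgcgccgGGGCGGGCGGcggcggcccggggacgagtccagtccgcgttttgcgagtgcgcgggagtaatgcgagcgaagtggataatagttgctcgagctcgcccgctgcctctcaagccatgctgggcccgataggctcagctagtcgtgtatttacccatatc
BCL7C, chr16:30894028-30894327, - strand: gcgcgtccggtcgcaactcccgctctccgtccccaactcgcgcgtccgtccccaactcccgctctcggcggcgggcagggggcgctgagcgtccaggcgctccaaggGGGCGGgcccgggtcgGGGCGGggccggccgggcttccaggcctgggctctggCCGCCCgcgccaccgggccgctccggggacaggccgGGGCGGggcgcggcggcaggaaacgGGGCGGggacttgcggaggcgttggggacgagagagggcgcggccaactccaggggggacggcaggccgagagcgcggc
The first SMARCA4 window held 55 CG dinucleotides, more than 99.6% of all windows. The first SMARCA2 window held 30. It carried an AP-1 match and an ETS match beside its GC boxes. SMARCA2 has 4 windows in the table. The last, 143117 bases downstream of the first, had 9 CG dinucleotides, those between had 3 and 4, and none of these 3 matched any of the 6 motifs. The count tables give 1 count per gene for all starts together. The ARID1A, ARID1B and BCL7C windows shown held 33, 39 and 45 CG dinucleotides. The ARID1B window shown is the second of 2, 1352 bases from the first, which held 5 CG dinucleotides, a CCAAT match and no GC box. A further SMARCA4 window, 23094 bases downstream, held 5 CG dinucleotides and no match. Of the 31 genes, 26 had 47 windows in all. GC boxes were present in 74.5% of these, CCAAT boxes in 29.8%, ETS sites in 6.38% and AP-1 sites in 4.26%, and none held a CRE or an NRF1 match. Over these windows the median number of CG dinucleotides was 30, against 14 over all windows. A match is a description of the letters only.

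Counts assigned to genes ranged from 62467286 to 70455517 per library, and log2 CPM correlated at 0.9962 or more between replicates. TMM scaling factors were 1.133 and 1.146 in the H1975 ACBI1 libraries, above the 0.9058 to 0.9898 of the 6 others. The 4 haematopoietic markers summed to at most 0.93 CPM in every library. The 6 epithelial markers summed to 5137 and 5393 CPM in H1975 DMSO and to 2331 and 2808 CPM in H1975 ACBI1, and in HCC44 to 939.8 and 979.9 CPM with DMSO and 1199 and 1658 CPM with ACBI1. The 4 mesenchymal markers summed to 2225 and 2823 CPM in H1975 DMSO and to 949 and 1048 CPM in H1975 ACBI1, and in HCC44 to 483 and 587 CPM with DMSO and 669.7 and 878 CPM with ACBI1. With ACBI1 both sums were thus lower in H1975 and higher in HCC44, with no overlap of the groups. Single markers did not all move with their sum. In HCC44 the mean of KRT7 went from 441 to 936 CPM, and EPCAM and CDH1 were higher. KRT8 went from 217 to 151 CPM there, and KRT18 and KRT19 overlapped. Of the mesenchymal markers in HCC44, VIM and FN1 were higher, ZEB1 overlapped, and CDH2, under 1 CPM throughout, was lower. In H1975, EPCAM and ZEB1 overlapped. Of 6 lung lineage markers, 2 were under 1 CPM in every H1975 library and 4 in every HCC44 library, and the 6 summed to 60.1 and 60.3 CPM in HCC44 DMSO and to 99.0 and 143 CPM in HCC44 ACBI1, most of it FOXA1. NKX2-1, a defining lung factor, had a mean of 25.9 CPM in H1975 DMSO and of 0.02 CPM in HCC44 DMSO. The part of these shifts in the results below, in either line, was not tested. In such bulk samples, fewer cells that carry a transcript and less of it per cell cannot be told apart.

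Levels are given as CPM, the read counts divided by the TMM-scaled library size and multiplied by 1000000. A gene was called when its adjusted p was under 0.05 in the quasi-likelihood test of edgeR, with the Benjamini-Hochberg method applied over 21307 genes. Fold changes are ACBI1 against DMSO on the log2 scale with their standard error (SE), and rose or fell is written only of a called change.

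Per length, the transcripts of the complexes spanned several orders of magnitude. ACTB, which encodes the beta-actin found in the complexes and in the cytoskeleton, ranked 1 in every group, with a level of 2023 ± 21.2 CPM per kb of merged exons (SD, n = 2) in H1975 DMSO and 675 ± 3.5 in HCC44 DMSO. Below it in H1975 DMSO, SMARCC1 was at 27.1 ± 2.4, ACTL6A at 24.1 ± 1.8, BCL7B at 22.7 ± 0.59 and SMARCA4 at 22.6 ± 0.21 CPM per kb, and no test was made between these neighbours, where ACTL6A, BCL7B and SMARCA4 lie within the spread of ACTL6A. SMARCA2 stood at 3.53 ± 0.39 CPM per kb in H1975 DMSO and 3.16 ± 0.0065 in HCC44 DMSO, rank 22 in both. The lowest ranks held BCL11B, ACTL6B, SMARCE1, DPF3, DPF1 and, in H1975, BCL11A.

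**Figure D1:**
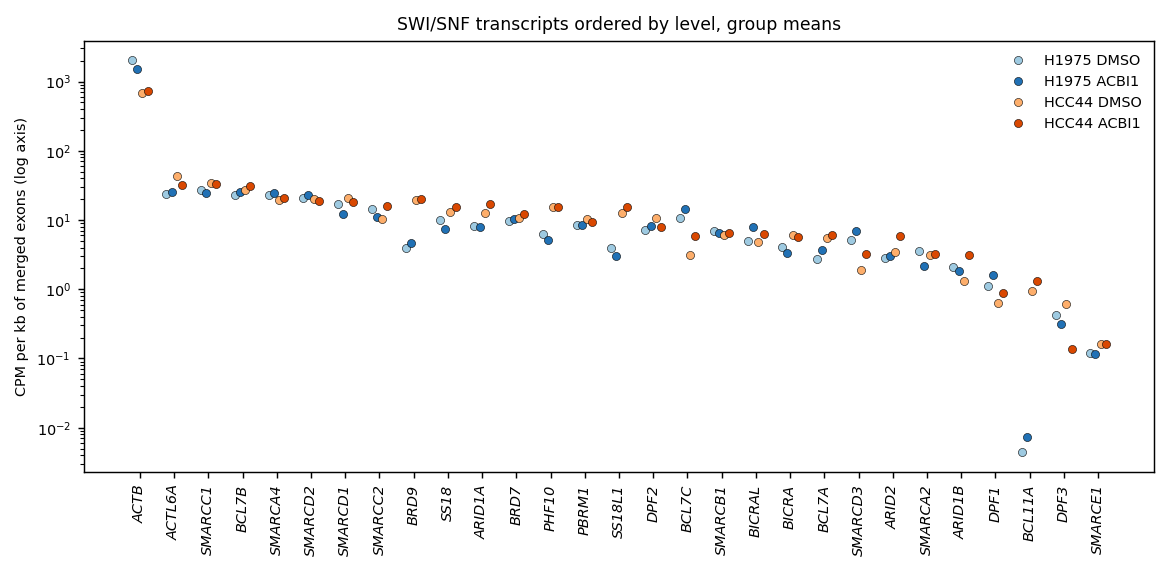
Group mean level of the 29 tested SWI/SNF transcripts in CPM per kb of merged exons, on a log axis, with genes ordered by level and a point per group. ACTB sits between 675 and 2023 in the 4 groups, SMARCA4 between 19.5 and 24.8, SMARCA2 between 2.19 and 3.53, and BCL11A is near 0 in H1975 but at 0.94 and 1.31 in HCC44.

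With ACBI1, 11 of the 29 tested SWI/SNF transcripts were called in H1975, 5 higher and 6 lower, where 31.3% of all tested genes were called (14.6% higher and 16.7% lower). In HCC44, 10 of 29 were called, 7 higher and 3 lower, against 34.9% of all genes (17.5% higher and 17.4% lower). These shares, 37.9% and 34.5%, were near the background of each line. The changes were small: the median absolute log2 fold change was 0.25 in H1975 and 0.19 in HCC44, against 0.38 and 0.42 over all genes. None of the called members changed by 2-fold or more in H1975, and 2 did in HCC44, ARID1B and DPF3. The signed medians were -0.01 and 0.10, against -0.01 and 0.01 over all genes.

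The split of directions in H1975 moved with the scaling. When library totals replaced TMM factors, the median gene moved up by 0.20 in H1975 and by 0.09 in HCC44 (log2), and the member calls in H1975 became 12 higher and 2 lower, so that 85.7% of calls were rises, not 45.5%. Over all genes, 72.3% of H1975 calls were then rises, not 46.6%. The member calls gained were SMARCA4, SMARCD2, BCL7B, DPF2, ARID2, BRD7 and BRD9, at 0.31 to 0.45. With upper-quartile factors 6 were higher and 4 lower in H1975, with BCL7B gained at 0.25. That is 60% rises, against 56.3% over all genes. In HCC44, library totals gave 12 higher and 3 lower, with BCL7B, DPF1, SS18L1, BRD7 and BICRAL gained at 0.25 to 0.61. That is 80% against 70% rises, and over all genes it was 60.5% against 50%. Fewer members were called in H1975 without H1975 DMSO replicate 1 or without H1975 ACBI1 replicate 1 or 2, and fewer genes over all as well.

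Most of the called members were called in 1 line alone, which is not by itself a difference between the lines. No share over all genes is given for this overlap. In both lines, SMARCD3 and BCL7C rose. SMARCC2 and SS18 fell in H1975 and rose in HCC44. SMARCA2, SMARCD1, ACTB, BCL7A, DPF1, SS18L1 and BICRAL were called in H1975 but not in HCC44, and ACTL6A, ARID1A, ARID1B, DPF2, DPF3 and ARID2 in HCC44 but not in H1975. A further 12 members were called in neither line. The difference of the responses, tested in the same fit as HCC44 minus H1975, was called for 12 of 29 members, 9 positive and 3 negative, where 18.6% of all genes were called (10.2% positive and 8.4% negative). That share, 41.4%, is above the background share, but no test of the list was made. Several of these calls were lost when a single library was left out, as given per gene below. Leaving out a library mostly lowered the number of calls over all genes as well. Of the members called in H1975 alone, SMARCD1, BCL7A, DPF1 and BICRAL had no called difference (adjusted p = 0.102, 0.213, 0.944 and 0.425). The other members called in 1 line alone had a called difference. Library totals moved the median gene by -0.11 in this comparison, and the calls then were 7 positive and 3 negative. That is 70% against 75% positive, and over all genes it was 40.5% against 54.9%.

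**Figure D2:**
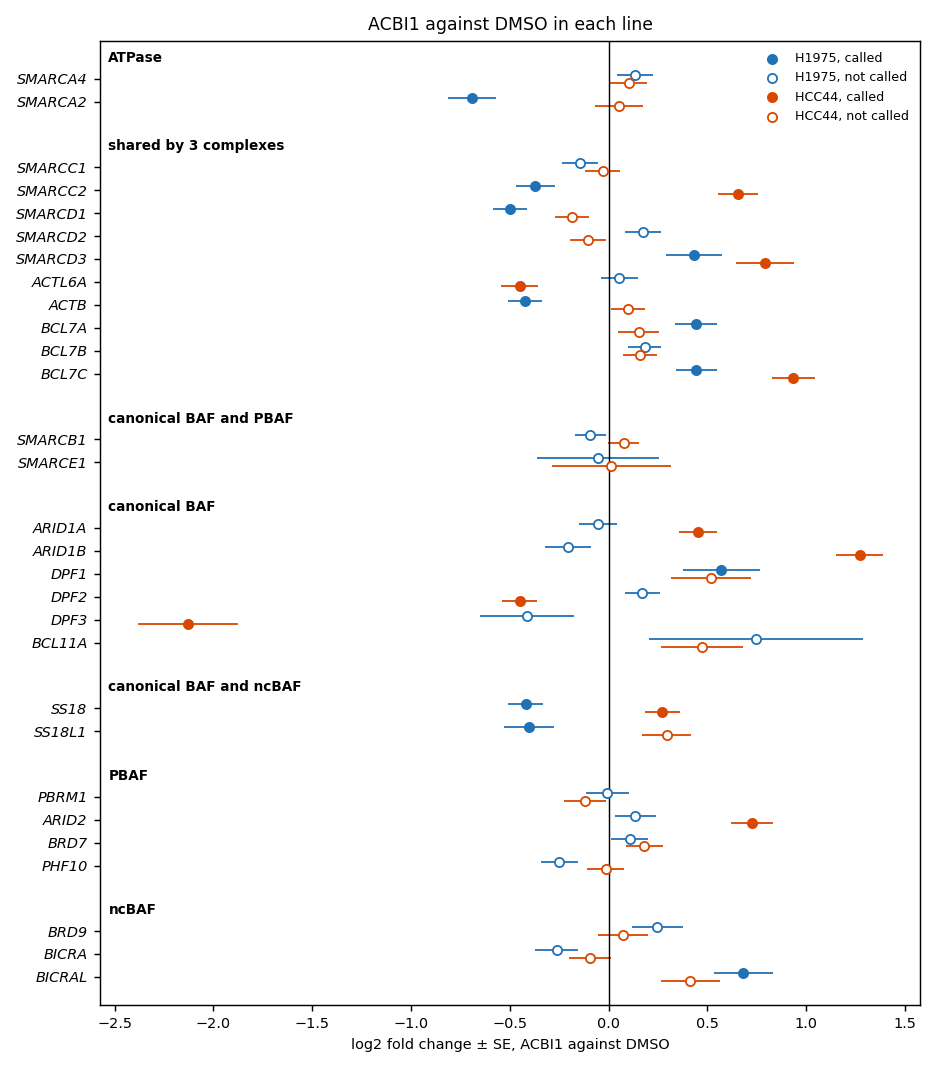
Log2 fold change ± SE of ACBI1 against DMSO for each tested SWI/SNF transcript, grouped by complex, in H1975 (blue) and HCC44 (orange). Filled points were called: SMARCC2 lies at -0.37 in H1975 and 0.66 in HCC44, ARID1B at 1.27 and DPF3 at -2.13 in HCC44, and the open points of SMARCA4 and PBRM1 lie near 0.

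Among the ATPases, SMARCA2 fell in H1975 and no other change was called. SMARCA4, the main ATPase in these lines by level, was at 354 and 359 CPM in the H1975 DMSO libraries and at 378 and 406 CPM in the H1975 ACBI1 libraries. In HCC44 it was at 317 and 299.7 CPM with DMSO and at 308 and 353 CPM with ACBI1. The ACBI1 libraries lay above the DMSO libraries in H1975 and overlapped them in HCC44, and the log2 fold changes were 0.14 ± 0.09 (adjusted p = 0.295) and 0.10 ± 0.09 (adjusted p = 0.437). With library totals the H1975 value was 0.34 with an adjusted p of 0.0133.

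SMARCA2 was at 60.5 and 70.7 CPM with DMSO and at 40.3 and 41.1 CPM with ACBI1 in H1975. Both ACBI1 libraries lay below both DMSO libraries, and the transcript fell by 0.69 ± 0.12 on the log2 scale (adjusted p = 0.00188), a call that held under every alternative tried. In HCC44 the libraries were at 58.9 and 58.7 CPM with DMSO and at 68.1 and 53.7 CPM with ACBI1. These overlap, with a log2 fold change of 0.05 ± 0.12 (adjusted p = 0.79). Between the lines, the response differed by 0.74 ± 0.17 (adjusted p = 0.0136), and its adjusted p missed the threshold without H1975 DMSO replicate 2, at 0.57, or without HCC44 DMSO replicate 1, at 0.74. The gene spans chr9:1980290-2193624 on GRCh38, and 2.26% of its exon bases overlap a gene on the other strand.

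The core group, headed in the figures as shared by 3 complexes, includes paralogs that are not part of every complex. Of its 10 tested members, 3 rose and 3 fell in H1975, and 3 rose and 1 fell in HCC44. These are 60 and 40% of the group, against 31.3 and 34.9% of all genes, and no test of the group was made. SMARCC1 and SMARCC2 are the paired scaffold proteins around which the complexes assemble. SMARCC1 lay between 182 and 220.2 CPM in H1975 and between 249 and 266 CPM in HCC44, and no change was called (adjusted p = 0.253 and 0.838).

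SMARCC2 moved in opposite directions. In H1975 it was at 132 and 112 CPM with DMSO and at 97.5 and 91.1 CPM with ACBI1. In HCC44 it was at 91.8 and 83.6 CPM with DMSO and at 137 and 139 CPM with ACBI1. The groups did not overlap in either line. The fall in H1975 was 0.37 ± 0.10 on the log2 scale (adjusted p = 0.0161), and HCC44 had a rise of 0.66 ± 0.10 (adjusted p = 0.000538). The lines differed by 1.03 ± 0.14 (adjusted p = 0.00105). The HCC44 call and the difference held under every alternative. The H1975 call was lost with upper-quartile factors (-0.30), with library totals (-0.17), without H1975 DMSO replicate 1 (-0.25) and without H1975 ACBI1 replicate 1 (-0.38) or 2 (-0.30). MYL6, on the other strand, overlaps 6.01% of its exon bases.

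SMARCD1, SMARCD2 and SMARCD3 are alternative core subunits that contact transcription factors. SMARCD1 was at 87.9 and 88.5 CPM with DMSO and at 64.0 and 60.8 CPM with ACBI1 in H1975. The groups were well apart, and SMARCD1 fell by 0.50 ± 0.09 (adjusted p = 0.00178) under every alternative tried. In HCC44 it was at 109 and 101 CPM with DMSO and at 96.0 and 89.0 CPM with ACBI1, lower in both ACBI1 libraries but not called (adjusted p = 0.126). SMARCD3 had 27.1 and 26.8 CPM with DMSO and 32.9 and 39.8 CPM with ACBI1 in H1975. In HCC44 it had 10.4 and 9.08 CPM with DMSO and 15.01 and 18.7 CPM with ACBI1. Both ACBI1 libraries were higher in each line, and SMARCD3 rose in both, with log2 fold changes of 0.43 ± 0.14 for H1975 (adjusted p = 0.0403) and 0.79 ± 0.15 for HCC44 (adjusted p = 0.00194). The H1975 call was lost without H1975 DMSO replicate 1 or 2, H1975 ACBI1 replicate 2, or HCC44 DMSO replicate 1 or 2, at values of 0.31 to 0.47. Genes on the other strand overlap 13.8% of SMARCD3 exon bases. SMARCD2 lay between 67.5 and 91.4 CPM in all libraries and was called in neither line (adjusted p = 0.18 and 0.418).

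ACTL6A and ACTB are the actin-fold pair that couples the ATPase to nucleosome sliding. ACTL6A was at 84.0 and 93.2 CPM with DMSO and at 90.0 and 94.0 CPM with ACBI1 in H1975, where the groups overlapped (adjusted p = 0.703). HCC44 libraries had 156 and 164 CPM with DMSO and 124 and 110.0 CPM with ACBI1. The HCC44 groups were apart, and ACTL6A fell by 0.45 ± 0.09 there (adjusted p = 0.00368). The lines differed by -0.50 ± 0.13 (adjusted p = 0.0233), a call lost at values of -0.54 to -0.42 without H1975 DMSO replicate 1, H1975 ACBI1 replicate 2, HCC44 DMSO replicate 1 or 2, or HCC44 ACBI1 replicate 2. ACTL6B, its neuronal paralog, had 0, 1, 3 and 1 counts in the H1975 libraries and 0 in all 4 HCC44 libraries, which allows up to 3 counts, or 0.048 CPM, per library.

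ACTB was at 7173 and 7068 CPM with DMSO and at 5535 and 5078 CPM with ACBI1 in H1975. ACTB fell by 0.42 ± 0.09 (adjusted p = 0.00378) in that line, beside the lower sums of epithelial and mesenchymal markers given above, whose part in it was not tested. The call was lost with library totals, at -0.22, and without H1975 ACBI1 replicate 2, at -0.34. In HCC44 the libraries lay between 2365 and 2556 CPM, not called (adjusted p = 0.405). The difference was 0.52 ± 0.12 (adjusted p = 0.013), lost without H1975 ACBI1 replicate 2 (0.44) or HCC44 DMSO replicate 1 (0.53) or 2 (0.52).

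BCL7A, BCL7B and BCL7C are small core subunits. BCL7A was at 17.5 and 18.0 CPM with DMSO and at 24.7 and 23.6 CPM with ACBI1 in H1975. It rose by 0.44 ± 0.11 there (adjusted p = 0.0099), a call lost without H1975 DMSO replicate 1 (0.42) or H1975 ACBI1 replicate 1 (0.44). In HCC44 it lay between 33.7 and 40.1 CPM and was not called (adjusted p = 0.301). BCL7C was at 44.2 and 48.7 CPM with DMSO and at 59.3 and 67.1 CPM with ACBI1 in H1975. The HCC44 levels were 13.8 and 13.6 CPM with DMSO and 26.3 and 26.01 CPM with ACBI1, both far above the DMSO libraries. BCL7C rose in both, with log2 fold changes of 0.44 ± 0.10 for H1975 (adjusted p = 0.00856) and 0.94 ± 0.11 for HCC44 (adjusted p = 9.68e-05). The HCC44 rise held under every alternative, and the H1975 call was lost without H1975 DMSO replicate 1 or H1975 ACBI1 replicate 2, at 0.37. The difference, 0.49 ± 0.15 (adjusted p = 0.0419), was lost with RLE size factors, with library totals, with DESeq2 and with any of the 8 libraries left out, at 0.37 to 0.57. Other genes overlap 13.2% of BCL7C exon bases. BCL7B lay between 78.8 and 91.8 CPM in H1975 and between 94.7 and 113 CPM in HCC44, not called (adjusted p = 0.129 and 0.178).

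**Figure D3:**
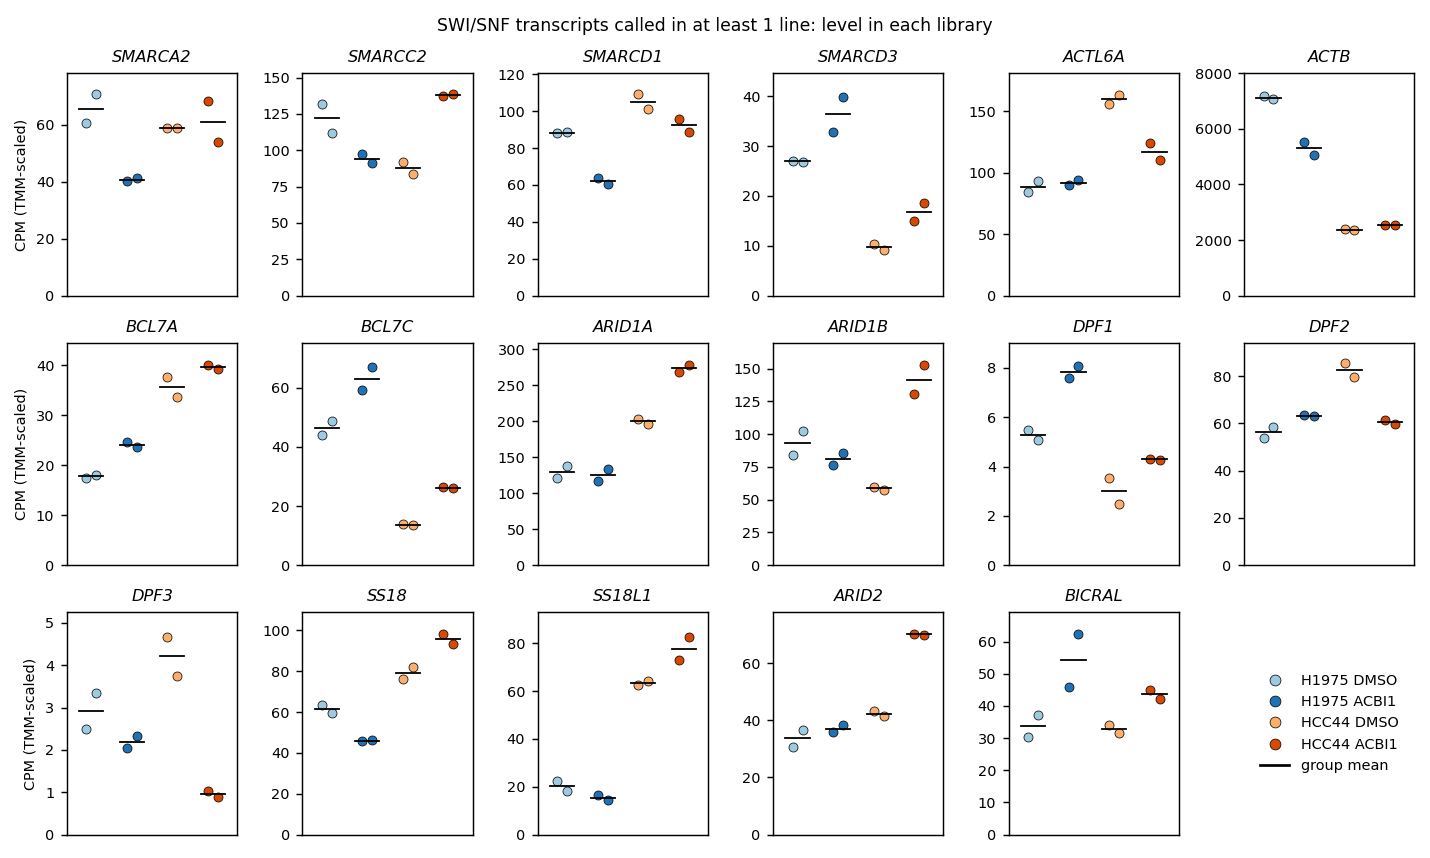
CPM in each library (points) and group means (lines) for the 17 SWI/SNF transcripts called in at least 1 line. SMARCA2 is at 40.3 and 41.1 CPM in H1975 ACBI1 and at 53.7 to 70.7 CPM in the other groups, and the HCC44 ACBI1 libraries of ARID1B, at 131 and 152 CPM, stand well above the HCC44 DMSO libraries, at 59.8 and 57.7 CPM.

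SMARCB1 and SMARCE1, core subunits of canonical BAF and PBAF that are absent from ncBAF, were not called in either line. SMARCB1, which grips the nucleosome and is lost in rhabdoid tumours, lay between 101 and 115 CPM in all 8 libraries, with 17.7% of its exon bases overlapped by DERL3 on the other strand. SMARCE1, a DNA-binding HMG subunit, had only 101 to 217 counts per library. Of its exon bases, 19.8% overlap other genes on the same strand in GENCODE release 29, and the share of reads the tables set aside as ambiguous was 4.98 to 5.42%. The level of SMARCE1 is therefore uncertain.

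In canonical BAF, 2 of 6 tested members rose and 2 fell in HCC44, and 1 rose in H1975. These are 66.7 and 16.7% of the group, against 34.9 and 31.3% of all genes, and no test of the group was made. ARID1A, the large subunit that holds canonical BAF together and a tumour suppressor often mutated in cancer, was at 121 and 138 CPM with DMSO and at 117 and 133 CPM with ACBI1 in H1975. These overlapped (adjusted p = 0.712). In HCC44, ARID1A was at 204 and 196 CPM with DMSO and at 269 and 278 CPM with ACBI1. It rose by 0.45 ± 0.10 in HCC44 (adjusted p = 0.00442) under every alternative tried. The lines differed by 0.51 ± 0.14 (adjusted p = 0.0269), a call lost with RLE size factors (0.47), with library totals (0.39) and, at 0.36 to 0.53, without H1975 DMSO replicate 2, H1975 ACBI1 replicate 1, HCC44 DMSO replicate 1 or 2, or HCC44 ACBI1 replicate 2.

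ARID1B, the paralog that can take the place of ARID1A, had the largest rise of the family. In HCC44 it went from 59.8 and 57.7 CPM with DMSO to 131 and 152 CPM with ACBI1. ARID1B rose by 1.27 ± 0.12 (adjusted p = 2.62e-05), or 2.41-fold. In H1975 it was at 83.8 and 103 CPM with DMSO and at 76.6 and 85.4 CPM with ACBI1, which overlap (adjusted p = 0.214). The difference was 1.47 ± 0.17 (adjusted p = 0.000343). The HCC44 rise and the difference held under every alternative tried. ARID1B spans chr6:156776020-157210779 on GRCh38.

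DPF1, DPF2 and DPF3 are alternative histone readers of canonical BAF, DPF2 in most tissues and the others chiefly in neurons and muscle. DPF2 was at 53.9 and 58.5 CPM with DMSO and at 63.4 and 63.1 CPM with ACBI1 in H1975, where it was not called (adjusted p = 0.172). For HCC44 the levels were 85.5 and 79.7 CPM with DMSO and 61.3 and 59.7 CPM with ACBI1. DPF2 fell by 0.45 ± 0.09 in HCC44 (adjusted p = 0.00266), with a difference between the lines of -0.62 ± 0.13 (adjusted p = 0.00719). DPF3 had the largest fall of the family, from 4.67 and 3.75 CPM to 1.04 and 0.88 CPM in HCC44. That fall was -2.13 ± 0.25 (adjusted p = 0.000122), 4.38-fold lower. In H1975, DPF3 was at 2.49 and 3.34 CPM with DMSO and at 2.05 and 2.33 CPM with ACBI1, not called (adjusted p = 0.217), and the difference was -1.72 ± 0.35 (adjusted p = 0.00715). The HCC44 calls and the differences of DPF2 and DPF3 held under every alternative.

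DPF1 was at 5.48 and 5.06 CPM with DMSO and at 7.58 and 8.07 CPM with ACBI1 in H1975. It rose there by 0.57 ± 0.20 (adjusted p = 0.047), a call lost without any 1 of the 4 H1975 libraries, at 0.55 to 0.65. HCC44 levels stood at 3.53 and 2.48 CPM with DMSO and at 4.32 and 4.28 CPM with ACBI1, higher in both ACBI1 libraries but not called, with a log2 fold change of 0.52 ± 0.20 (adjusted p = 0.0711). It was called there with library totals, at 0.61, and without HCC44 DMSO replicate 1, at 0.79. Of the neuronal markers, SYP was at 1.79 and 0.87 CPM in H1975 DMSO and at 12.3 and 16.3 CPM in H1975 ACBI1, and at 0.22 CPM in both HCC44 DMSO libraries and 2.4 and 2.09 CPM in HCC44 ACBI1, while CHGA and INSM1 were under 1 CPM and NEUROD1 had 0 counts in each of the 8 libraries. The part of this in the DPF1 values was not tested.

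BCL11A, a zinc finger protein of canonical BAF known for silencing fetal globin, had most of its reads in HCC44. It had 5, 10, 19 and 9 counts in the H1975 libraries, and 20.2, 27.8, 29.1 and 37.5 CPM in HCC44 DMSO replicates 1 and 2 and ACBI1 replicates 1 and 2. It passed the filter on low counts through HCC44 alone, so its H1975 test is not given. It still counts among the 29 tested members, the 6 tested members of canonical BAF and the 12 called in neither line. In HCC44 the ACBI1 change was not called (adjusted p = 0.1), but was with no filter, at 0.48 (adjusted p = 0.0143). Its paralog BCL11B had at most 3 counts in any library.

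SS18 and SS18L1 are alternative subunits of canonical BAF and ncBAF, and SS18 is the fusion partner of SSX in synovial sarcoma. Both fell in H1975. SS18 was at 63.4 and 59.5 CPM with DMSO and at 45.8 and 46.1 CPM with ACBI1 in H1975. HCC44 libraries had 76.4 and 82.1 CPM with DMSO and 98.2 and 93.2 CPM with ACBI1. The groups stood apart in opposite directions, and SS18 fell by 0.42 ± 0.09 in H1975 (adjusted p = 0.00479) and rose by 0.27 ± 0.09 in HCC44 (adjusted p = 0.0327). The difference between the lines, 0.69 ± 0.12 (adjusted p = 0.00408), held under every alternative. The H1975 call was lost with library totals (-0.22) and without H1975 ACBI1 replicate 1 (-0.38) or 2 (-0.40). The HCC44 call was lost with no filter (0.28) and, at 0.22 to 0.33, without H1975 ACBI1 replicate 1 or 2, HCC44 DMSO replicate 1 or 2, or HCC44 ACBI1 replicate 1.

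SS18L1 was at 22.5 and 18.1 CPM with DMSO and at 16.4 and 14.4 CPM with ACBI1 in H1975. The HCC44 levels were 62.5 and 64.2 CPM with DMSO and 72.8 and 82.6 CPM with ACBI1. Groups did not overlap in either line. SS18L1 fell by 0.40 ± 0.13 in H1975 (adjusted p = 0.0335), and its HCC44 value of 0.29 ± 0.12 was not called (adjusted p = 0.0888) but was with library totals, at 0.39, or each line fitted alone, at 0.30. The difference was 0.70 ± 0.18 (adjusted p = 0.0203), lost at 0.54 to 0.72 without H1975 DMSO replicate 1, H1975 ACBI1 replicate 2, HCC44 DMSO replicate 1 or 2, or HCC44 ACBI1 replicate 2. The H1975 call was lost with upper-quartile factors (-0.33), with library totals (-0.20), with each line fitted alone (-0.40) and, at -0.46 to -0.24, without H1975 DMSO replicate 1, H1975 ACBI1 replicate 1 or 2, or HCC44 DMSO replicate 1 or 2.

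In PBAF, ARID2 rose in HCC44 and the other 3 members were called in neither line. That is 25% of the group in HCC44 and 0% in H1975, against 34.9 and 31.3% of all genes. PBRM1, the multi-bromodomain subunit that ACBI1 also binds, was at 76.1 and 88.9 CPM with DMSO and at 74.8 and 89.5 CPM with ACBI1 in H1975. For HCC44 the levels were 99.9 and 97.4 CPM with DMSO and 91.6 and 89.9 CPM with ACBI1. The H1975 groups overlapped and the HCC44 ACBI1 libraries were lower, with log2 fold changes of -0.01 ± 0.11 (adjusted p = 0.976) and -0.12 ± 0.11 (adjusted p = 0.432). The sign of the H1975 value changed with the scaling, to 0.03 with RLE size factors and 0.20 with library totals.

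ARID2, the ARID subunit of PBAF, went from 43.2 and 41.5 CPM with DMSO to 70.1 and 70.1 CPM with ACBI1 in HCC44. ARID2 rose by 0.73 ± 0.11 there (adjusted p = 0.000427) under every alternative. In H1975 it was at 30.8 and 36.7 CPM with DMSO and at 35.9 and 38.3 CPM with ACBI1, overlapping (adjusted p = 0.365). The difference was 0.59 ± 0.15 (adjusted p = 0.0199), lost at 0.41 to 0.62 without H1975 DMSO replicate 2, H1975 ACBI1 replicate 1 or 2, or HCC44 DMSO replicate 1 or 2. All 3 ARID subunits thus rose in HCC44, where 17.5% of all genes did, and none was called in H1975. No test of these 3 as a group was made. BRD7, a bromodomain subunit, lay between 77.8 and 105 CPM in all libraries, with 42.4% of its exon bases overlapped by genes on the other strand, and was called in neither line (adjusted p = 0.424 and 0.168). PHF10, a PHD-finger subunit, lay between 27.9 and 36.2 CPM in H1975 and between 83.4 and 87.2 CPM in HCC44 (adjusted p = 0.0674 and 0.937).

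In ncBAF, BICRAL rose in H1975 and no other change was called. That is 33.3% of the group in H1975 and 0% in HCC44, against 31.3 and 34.9% of all genes. BICRAL, which with its paralog BICRA scaffolds this form, was at 30.2 and 37.3 CPM with DMSO and at 46.0 and 62.4 CPM with ACBI1 in H1975. It was at 34.0 and 31.5 CPM with DMSO and at 45.1 and 42.2 CPM with ACBI1 in HCC44. Both ACBI1 libraries were higher in each line. BICRAL rose by 0.68 ± 0.15 in H1975 (adjusted p = 0.00607), and its HCC44 value of 0.41 ± 0.15 had an adjusted p of 0.0528. The H1975 call was lost without H1975 ACBI1 replicate 2, at 0.47, and the HCC44 value was called with upper-quartile factors (0.47), library totals (0.50), no filter (0.42), the 1 CPM filter (0.43), each line fitted alone (0.42) and, at 0.41, without any 1 of the 4 H1975 libraries. A test of the lines against each other did not call it (adjusted p = 0.425). BICRA lay between 24.4 and 31.3 CPM in H1975 and between 40.7 and 48.1 CPM in HCC44 (adjusted p = 0.0883 and 0.538). BRD9, the bromodomain subunit that defines ncBAF, lay between 33.2 and 49.2 CPM in H1975 and between 176 and 194 CPM in HCC44 (adjusted p = 0.17 and 0.708), and its H1975 value was called with library totals, at 0.45, and without H1975 DMSO replicate 1, at 0.44.

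The share of each paralog in its family was compared per length. Shares are the percentage of the family's CPM per kb of merged exons, given per library or as the mean of 2 libraries, and no model was fitted to them. An exact permutation test of 2 against 2 libraries cannot go below p = 0.333, so none is given. SMARCA2 made up 12.7 and 14.3% of the ATPase pair in the H1975 DMSO libraries and 8.30 and 7.91% in the ACBI1 libraries, which do not overlap. In HCC44 it made up 13.6 and 14.2% with DMSO and 15.8 and 11.4% with ACBI1, which do. ARID1B made up 9.48% of the ARID1 pair in both HCC44 DMSO libraries and 14.8 and 16.4% in the ACBI1 libraries, against 18.6 to 20.9% over the H1975 libraries. SMARCC2 held 24.7 and 21.9% of the SMARCC pair in HCC44 DMSO and 33.1 and 32.6% in HCC44 ACBI1. In H1975 the SMARCC2 shares, 37.8 and 31.3% with DMSO and 32.3 and 29.7% with ACBI1, overlapped.

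Among the SMARCD genes, SMARCD1 made up 40.1% in H1975 DMSO and 28.8% in H1975 ACBI1, with 48.0 and 44.9% in the HCC44 groups, while SMARCD3 had 12.1 and 16.5% in H1975 and 4.39 and 8.06% in HCC44. DPF2 was the main DPF transcript at 80.8 to 89.7% in all groups, with DPF1 going from 5.21 to 10.1% and DPF3 from 5.10 to 1.57% in HCC44. BCL7C held 29.4% of its family in H1975 DMSO and 32.8% in H1975 ACBI1, and 8.65 and 14.0% in the HCC44 groups. BICRAL held 54.7 and 69.7% of its pair in the H1975 DMSO and ACBI1 groups, and 44.1 and 52.9% in those of HCC44. SS18L1 made up 28.4 and 28.7% of its pair in the H1975 groups and 49.1 and 49.5% in those of HCC44. The size of a share depends on the length used: the ARID1B share in HCC44 went from 18.9 to 29.1% with the longest transcript and from 22.7 to 34.1% with no length correction. In H1975 DMSO the order of BICRA and BICRAL turned with the longest transcript, where BICRAL made up 49.2%, and so it did in HCC44 ACBI1, at 47.3%. With no length correction SMARCD1 exceeded SMARCD2 in H1975 DMSO, at 46.0 and 39.9%, and in HCC44 ACBI1, at 51.4 and 39.2%.

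**Figure D4:**
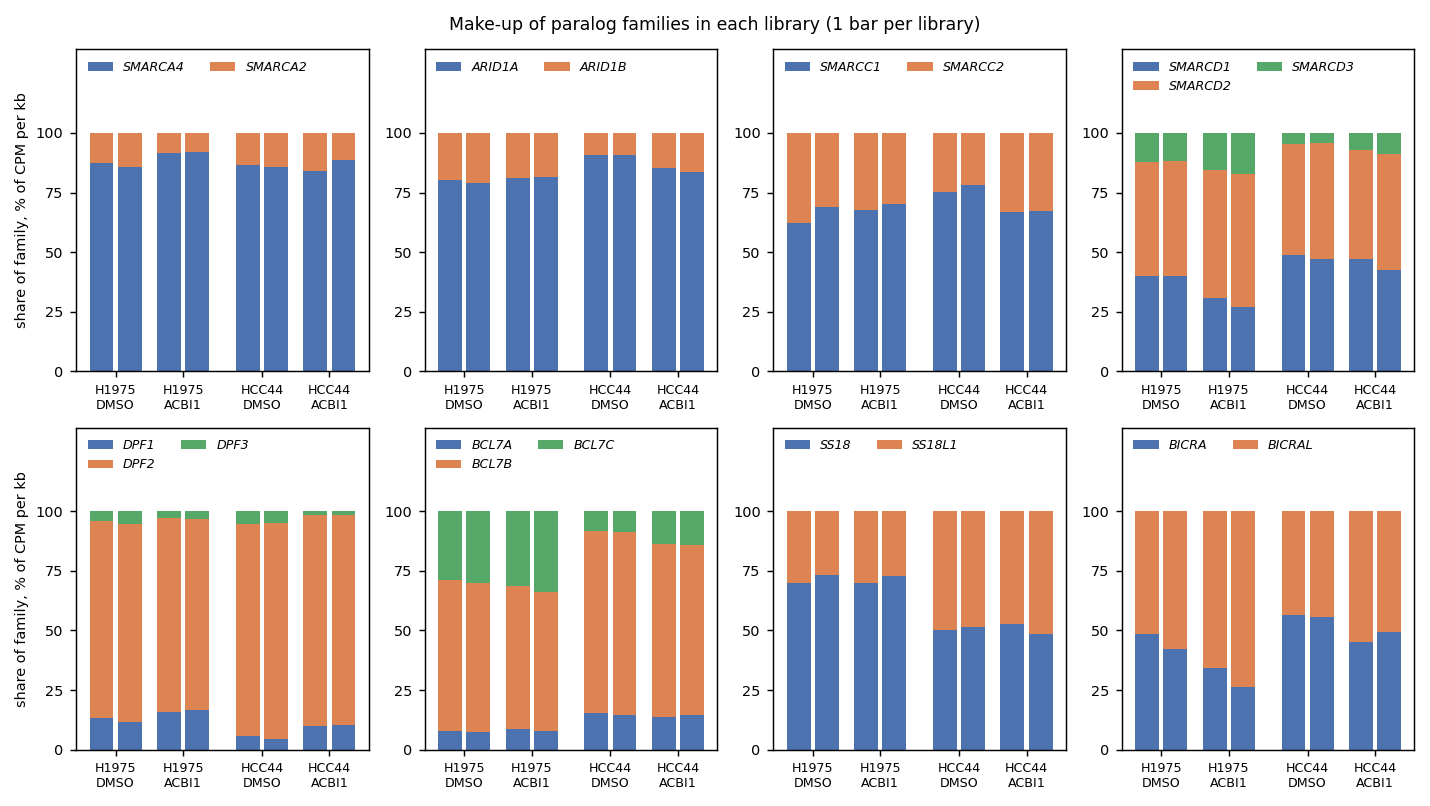
Share of each paralog in its family as a percentage of summed CPM per kb of merged exons, with a bar per library. SMARCA2 takes 7.91 to 8.30% in the H1975 ACBI1 bars and 11.4 to 15.8% in the others, and the ARID1B part of the HCC44 bars goes from 9.48 to between 14.8 and 16.4%.

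The lines began with different SWI/SNF transcript levels. Between the DMSO groups, 20 of 29 members were called, 14 higher and 6 lower in HCC44, where 67.9% of all genes were called (31.6% higher and 36.4% lower). The share of calls, 69%, was near the background, and it includes BCL11A, which passed the filter through HCC44 alone. The median log2 difference was 0.28 over the members and -0.08 over all genes, with HCC44 higher. Library totals moved the median gene by -0.12 here and gave 10 higher and 8 lower, or 55.6% higher against 70%, and upper-quartile factors gave 12 and 8, or 60%. Over all genes, 41.5% of calls were higher with library totals and 43.6% with upper-quartile factors, against 46.5%. This comparison uses the same DMSO libraries as the ACBI1 responses, so the values are given side by side only.

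Some ncBAF and PBAF members differed several-fold. BRD9 was at 43.0 and 33.2 CPM in H1975 DMSO and at 192 and 176 CPM in HCC44 DMSO, a log2 difference of 2.27 ± 0.13 (adjusted p = 8.46e-08), or 4.82-fold. PHF10 was 2.49-fold higher in HCC44, at 84.2 and 87.2 CPM against 32.5 and 36.2 CPM (adjusted p = 4.14e-07). BICRA was 1.5-fold higher (adjusted p = 0.000592). BCL11A was at 0.08 and 0.15 CPM in H1975 DMSO, from 5 and 10 counts, and at 20.2 and 27.8 CPM in HCC44 DMSO. Since it passed the filter only through HCC44, where it is high, its call is no support for a difference, and its fitted fold depends on those few counts. SS18L1 was 3.12-fold higher (adjusted p = 7.58e-07), BCL7A 2.01-fold (adjusted p = 8.62e-06) and ACTL6A 1.80-fold (adjusted p = 1.19e-05).

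Other members were modestly higher in HCC44 DMSO. ARID1A differed by 0.63 ± 0.10 (adjusted p = 0.000163), DPF2 by 0.56 ± 0.09 (adjusted p = 0.000196) and SS18 by 0.37 ± 0.09 (adjusted p = 0.00324). ARID2 at 0.33, SMARCC1 at 0.32, BCL7B at 0.28 and SMARCD1 at 0.25 on the log2 scale had adjusted p of 0.0172, 0.00877, 0.0135 and 0.023. Each of these 4 calls was lost with library totals, at 0.21, 0.20, 0.16 and 0.14, and each was lost without H1975 DMSO replicate 1. SMARCD1 and BCL7B were lost with upper-quartile factors as well, at 0.18 and 0.21, and SMARCD1 with no filter, at 0.24. ARID2 and BCL7B were also lost without HCC44 DMSO replicate 1, SMARCD1 without HCC44 DMSO replicate 1, and SMARCC1 and ARID2 without HCC44 DMSO replicate 2.

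Members lower in HCC44 DMSO were BCL7C, ACTB, SMARCD3, DPF1, ARID1B and SMARCC2. BCL7C was 3.4-fold lower (adjusted p = 1.22e-07), ACTB 3-fold (adjusted p = 5.11e-08), SMARCD3 2.77-fold (adjusted p = 5.73e-06) and DPF1 1.75-fold (adjusted p = 0.00412). ARID1B was 1.59-fold lower (adjusted p = 0.000395) and SMARCC2 1.39-fold (adjusted p = 0.00132). SMARCA4 differed by -0.21 ± 0.09 (adjusted p = 0.0613) and SMARCA2 by -0.16 ± 0.12 (adjusted p = 0.266), and neither was called. SMARCA4 was called lower with library totals, at -0.33, with upper-quartile factors, at -0.28, with the 1 CPM filter, at -0.22, and without HCC44 ACBI1 replicate 1 or 2, at -0.21. SMARCB1 was called lower with library totals, at -0.28, with upper-quartile factors, at -0.24, and with the 1 CPM filter, at -0.18. PBRM1 differed by 0.26 ± 0.11 (adjusted p = 0.0542), and was called without H1975 DMSO replicate 2, at 0.42, or H1975 ACBI1 replicate 1 or 2, at 0.28. DPF3 was called without H1975 DMSO replicate 2, at 0.81, and SMARCE1 without H1975 DMSO replicate 1, at 1.01.

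**Figure D5:**
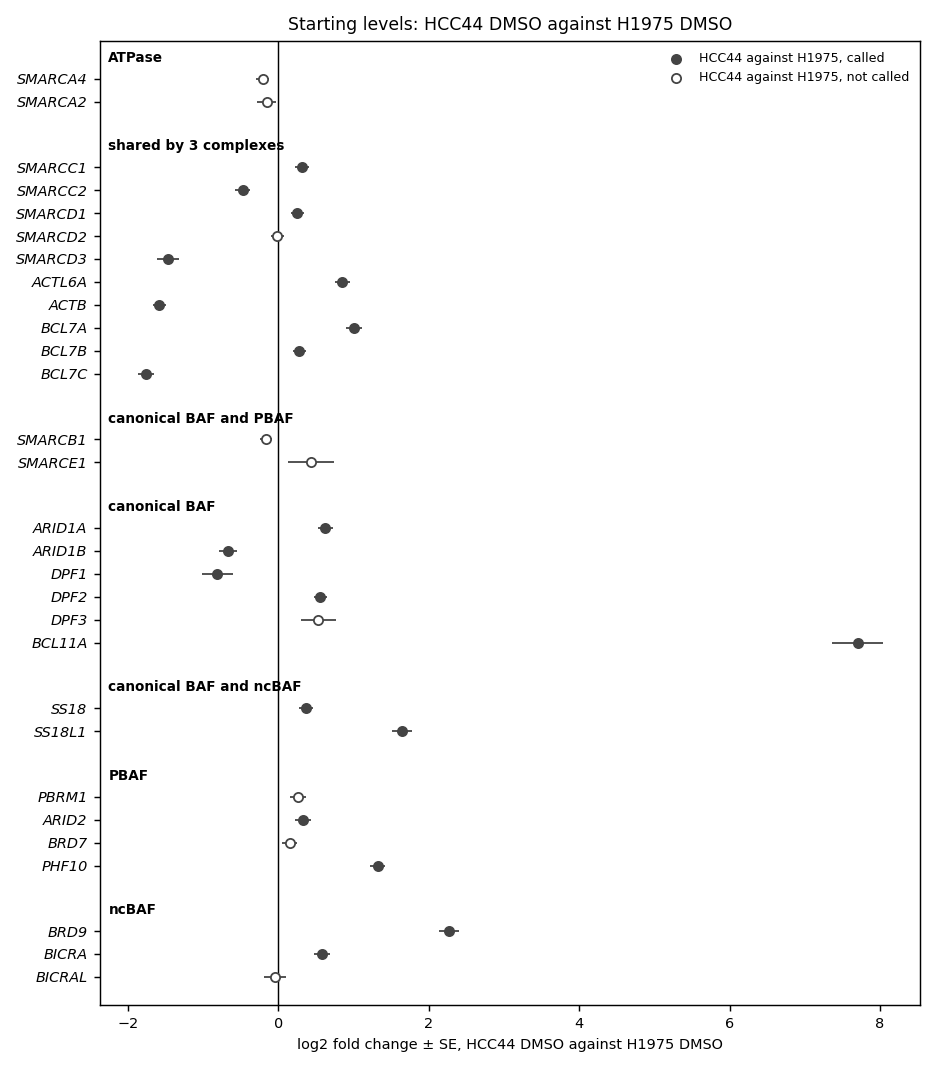
Log2 difference ± SE between HCC44 DMSO and H1975 DMSO for each tested SWI/SNF transcript, grouped by complex, with filled points for called genes and positive values for higher levels in HCC44. BCL11A lies at 7.70, fitted from 5 and 10 counts in H1975 DMSO, BRD9 at 2.27, BCL7C at -1.76, and SMARCA4 and SMARCA2 are open points at -0.21 and -0.16.

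Genes that work beside SWI/SNF were read from lists of other chromatin factors. Of 18 other remodeler ATPases, all tested, 2 rose and 5 fell in H1975, and 5 rose and 3 fell in HCC44, with a called difference for 2. These are 38.9, 44.4 and 11.1% of the list, against 31.3, 34.9 and 18.6% of all genes (medians -0.07 and -0.11 on the log2 scale, against -0.01 and 0.01 over all genes). The falls in H1975 include CHD4, the other main NuRD ATPase, at 14.4 and 11.6 CPM with DMSO and 6.81 and 5.32 CPM with ACBI1 (adjusted p = 0.00102). CHD4 had only 376 to 963 counts per library, against 8311 to 25587 for CHD3, and its level is uncertain. CHD3, a NuRD ATPase, was at 373 and 378 CPM with DMSO and at 291 and 303 CPM with ACBI1 in H1975, and at 132 and 144 CPM and 228 and 277 CPM in HCC44. The lines moved in opposite directions, with -0.34 ± 0.10 (adjusted p = 0.0266) in H1975, 0.88 ± 0.10 (adjusted p = 0.000108) in HCC44 and a difference of 1.21 ± 0.14 (adjusted p = 0.00048). The H1975 call on CHD3 was lost with library totals (-0.14), with DESeq2 (-0.31) and, at -0.36 to -0.28, without any 1 of the H1975 libraries. CHD5, a neural paralog, was at 0.52 and 0.56 CPM with DMSO and at 6.18 and 5.81 CPM with ACBI1 in HCC44, where it rose by 3.46 ± 0.32 (adjusted p = 2.54e-05). In H1975 it lay between 0.72 and 1.37 CPM, overlapping (adjusted p = 0.594), and the difference was 3.21 ± 0.44 (adjusted p = 0.00105).

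The VHL ligase that ACBI1 recruits has 5 subunits on the list, of which ELOC and RBX1 fell in H1975 and ELOB and ELOC in HCC44 (medians -0.20 and -0.11). These are 40% of the list in each line, against 31.3 and 34.9% of all genes, whose medians were -0.01 and 0.01. VHL itself was called in neither line (adjusted p = 0.197 and 0.477). Of 6 genes of PRC2, the methyltransferase complex that opposes SWI/SNF, EZH1 rose in each line and the other 5 were not called (medians -0.08 and 0.11). That is 16.7% of the PRC2 list in each line, below the shares over all genes. Among genes for other bromodomain proteins, BRD3 rose and BRD1 fell in HCC44. BRD3, a BET protein, lay between 75.6 and 92.0 CPM in H1975, not called (adjusted p = 0.169). It was at 73.1 and 79.1 CPM with DMSO and at 112 and 123 CPM with ACBI1 in HCC44, where it rose by 0.63 ± 0.09 (adjusted p = 0.000521), with a difference between the lines of 0.81 ± 0.13 (adjusted p = 0.00257).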

How the data were processed

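RNA was measured in 8 libraries, 2 in each of 4 groups set by the labels' titles. Each deposited file holds raw read counts per gene symbol as the authors made them, 1 table per library. The submitters' processing notes name TopHat2 2.1.1, HTSeq 0.11.0 and hg38, with no role given, and the annotation and strand setting are not given in the sources used here. The 5 rows that name no gene held 14.3 to 15.8% of each table and were left out.

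Counts were analysed with edgeR 4.0.16 in R 4.3.3: filterByExpr on the 4 groups, TMM factors, a mean per group over all 8 libraries (4 residual degrees of freedom, so that the groups share an estimate of the spread), and the two-sided robust quasi-likelihood F-test, with Benjamini-Hochberg adjustment. Each SE was taken as the absolute log2 fold change over the root of the F statistic. A common biological coefficient of variation of 0.123 was estimated. Exon lengths and overlaps came from GENCODE release 29 on GRCh38, where all 31 symbols matched, and start-site windows from RefSeq on GRCh38.p14. Levels between genes were compared per kb of merged exons. Overlapping genes are uncertain without the strand setting.

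SMARCA2, SMARCA4 and PBRM1 were always described. Other members called in any of the 4 comparisons were named with values, and the rest by level. Of the listed other chromatin genes, those named have a called difference between the lines, while the subunits of the VHL ligase, CHD4, EZH1, BRD1 and the markers were named after their values were seen. The members and lists were chosen with earlier results of these data known. No library was a copy of its replicate: chi-square divided by its degrees of freedom was 21.7 to 43.5. The alternatives were DESeq2 1.42.0, RLE, upper-quartile and total scaling, a filter of 1 CPM in 2 libraries, no filter, a block for the replicate number, each line fitted alone, non-robust dispersion, a threshold of 0.01, each library left out, and other lengths for the shares. The procedure was tested on simulated data. Figures were drawn with matplotlib 3.10.9. Some results of the comparison and marker lists are not reported here.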

Additional observations from a re-analysis of the deposited data

Results flagged for a closer look

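The response to ACBI1, in log2 units as HCC44 minus H1975, differed between the lines by the test of the difference itself for 12 of the 29 tested SWI/SNF transcripts, where 18.6% of all genes did. It was positive for ARID1B (1.47), SMARCC2 (1.03), SMARCA2 (0.74), SS18L1 (0.70), SS18 (0.69), ARID2 (0.59), ACTB (0.52), ARID1A (0.51) and BCL7C (0.49). It was negative for DPF3 (-1.72), DPF2 (-0.62) and ACTL6A (-0.50). In SMARCC2 and SS18 the lines moved in opposite directions with a call in each. In SMARCA2, SS18L1 and ACTB the call was in H1975 alone, in ARID1A, ARID1B, ARID2, DPF2, DPF3 and ACTL6A in HCC44 alone, and BCL7C rose in both lines.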

How the results depend on the processing

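Of 53 called fold changes of SWI/SNF transcripts over the 4 comparisons, 32 kept the call under every alternative and 0 changed sign. By comparison these were 2 of 11 in H1975, 9 of 10 in HCC44, 5 of 12 for the difference between the lines and 16 of 20 between the DMSO groups. Of 63 uncalled values, 23 were called under some alternative and 22 changed sign under some alternative. The number called in H1975, 11, was 7 at an adjusted p under 0.01 and 3 to 11 with each library left out. The difference between the lines had 12 calls, 5 at an adjusted p under 0.01 and 5 to 11 with each library left out, the fewest without HCC44 DMSO replicate 1. HCC44 had 9 to 11 calls and the DMSO comparison 17 to 22 with each library left out. Over all genes an adjusted p under 0.01 left 3691 calls in H1975, 4681 in HCC44 and 1654 for the difference. With each library left out these were at least 3690, 4945 and 2341. The labels name no batch or day that a replicate number would mark, and there are 2 pairs per line, so the numbers were not taken as pairing the libraries. Deviations of same-numbered libraries correlated at 0.64 in H1975 and 0.22 in HCC44. With the replicate number as a block, 15 members were called in H1975, 16 in HCC44, 13 for the difference and 23 between the DMSO groups, and the genes called for the difference rose from 3967 to 6358. The calls gained under the block were BCL7B, PHF10, BRD9 and BICRA in H1975, and SMARCD1 for the difference. In HCC44 they were SMARCD1, DPF1, BCL11A, SS18L1, BRD7 and BICRAL, and between the DMSO groups PBRM1 (0.40), DPF3 and BRD7. Signs turned only for uncalled values. PBRM1 in H1975, at -0.01, was 0.03 with RLE size factors (0.025) and with DESeq2 (0.025), 0.066 with upper-quartile factors, 0.20 with library totals, 0.014 with the 1 CPM filter, and -0.12 to 0.16 with each library left out. In the same way SMARCA4 in HCC44 ranged from -0.0011 to 0.20 and SMARCA2 in HCC44 from -0.13 to 0.21. SMARCA4 ranged from -0.13 to 0.065 and PBRM1 from -0.28 to 0.00094 for the difference, and SMARCA2 from -0.27 to 0.0092 between the DMSO groups. The causes were not tested. With 0 to 3 counts per library, ACTL6B and BCL11B were too low to show a difference at this depth.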
